A study of Sus scrofa with 28 samples.

Results

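Genes of splicing, translation and the ribosome were followed in loin muscle (Longissimus dorsi) of 28 male piglets at 28 days of age, 14 Duroc × Iberian crossbreds (DU×IB) and 14 purebred Iberian piglets (IB). All dams were Iberian, so the genetic types differ in their sires. By the study's methods the DU×IB piglets came from far fewer litters than the IB piglets, so that most DU×IB piglets shared a litter. The labels do not say which were littermates, and all p-values and intervals treat each piglet as independent. Genetic type and litter are therefore not separated, and these p-values may be too small and the intervals too narrow. Counts of piglets below are likewise not counts of independent families. Each piglet had a porcine genome array of its own, and levels are GCRMA values on the log2 scale, where a difference of 1 is a 2-fold change.

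The genes were chosen by symbol: RPL, RPS followed by a digit, EIF, EEF, HNRN, SRSF, SFRS, SF3, SNRP, PRPF, DDX, DHX, LSM, RBM, NOP, CPSF, CSTF and PABP genes, with TIAL1 and BYSL, and without DDX58 and the RPS6K kinases. The rule gave 95 probe sets of 73 genes among 5226 probe sets. It reads symbols only, but TIAL1 and BYSL, which it adds by name, are on the study's list of differing genes from these same arrays. Another 5 probe sets are annotated to a gene of these families together with a second gene and were left out. All 5226 probe sets had passed the study's filter on variation, under which more than 20% of the values lie at least 1.5-fold from the median of the probe set, so stable members of these families are not among the 95. The symbol of a DDX5 probe set comes from the study, and the annotation of the array gives it another gene.

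Splicing removes introns from the primary transcript. The small nuclear ribonucleoproteins and their Sm and LSM proteins form the core spliceosome, SR proteins and hnRNP proteins bind the transcript and favour or repress the use of splice sites, and DEAD-box helicases remodel RNA at many of these steps. Translation starts when initiation factors bring the small ribosomal subunit to the start codon, goes on with elongation factors, and depends on ribosomes whose subunits are assembled in the nucleolus. In skeletal muscle of young animals this machinery serves fast protein deposition, and its capacity and its control by nutrition set much of the rate of growth.

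The arrays were hybridized in 2 series, of 16 and 12 arrays. The labels do not give the series, and it was recovered from the levels of 10 spike-in probe sets. The larger series held 8 DU×IB and 8 IB piglets and the smaller 6 of each, so the genetic types are balanced over the series. Array medians ran from 6.24 to 7.05 in DU×IB and from 6.01 to 7.02 in IB, and the lowest arrays were DU×IB replicate 3 and IB replicate 3. Of the skeletal muscle markers, 6 of 33 listed genes were in the table, and a probe set of TPM2, a tropomyosin of striated muscle, averaged 14.9 ± 0.455 in DU×IB and 14.7 ± 0.625 in IB (SD, n = 14 each). Of the 11 muscle probe sets 7 had higher and 4 lower means in DU×IB, none past the threshold. Within the series of 12 MYL3 passed, higher in DU×IB (adjusted p = 0.0956). Among other cell types, all 12 macrophage probe sets had lower means in DU×IB, none past the threshold, and their mean level per piglet ran from 5.19 to 5.90 in DU×IB and from 5.38 to 7.68 in IB. The 4 fibroblast probe sets all had higher means in DU×IB. Of these, 2 passed the threshold with the series as a block, and THY1 passed within the series of 12 (adjusted p = 0.0762). The mean level of the 4 per piglet ran from 9.33 to 10.6 in DU×IB and from 7.45 to 9.97 in IB. Of 5 adipocyte probe sets, RBP7 passed the threshold with no covariate (difference 1.58, adjusted p = 0.0309), while 3 others had lower means in DU×IB, and the mean level per piglet ran from 8.35 to 9.27 in DU×IB and from 7.65 to 9.63 in IB. None of the 9 endothelial probe sets passed, with a mean level from 6.51 to 7.81 in DU×IB and from 6.30 to 8.52 in IB, and probe sets of CLDN5 and PECAM1 passed, higher in DU×IB, within the series of 12. The part of these cell types in the values below was not tested, and in whole muscle fewer cells of a type and less RNA per cell cannot be told apart.

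None of the 95 probe sets differed between DU×IB and IB piglets past the threshold (limma with no covariate, adjusted p under 0.10 over all 5226 probe sets), against 0.995% of all probe sets. At an unadjusted p under 0.05 there were 2 of the 95, DDX11 and HNRNPL, both higher in DU×IB, against 8.50% of all probe sets. With the series as a block the count past the threshold was again 0 of 95, against 2.77% of all, and 7 had an unadjusted p under 0.05, against 13.8% of all. They were TIAL1, RBM4, BYSL and 1 probe set of SF3B1, lower in DU×IB, and DDX11, HNRNPL and RBM3, higher in DU×IB. The study's own list of differing genes, made from these same arrays, holds TIAL1, RBM4, BYSL and DDX11, so these 4 are not independent evidence. Within the series of 16 arrays 0 of 95 passed, against 0.172% of all. Within the series of 12 arrays 2 passed, TIAL1 and EIF2A, both lower in DU×IB, against 4.38% of all. With array weights 1 passed, HNRNPL, against 1.84% of all.

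The differences were small. The mean of 62 probe sets was higher in DU×IB and that of 33 was lower, and their median difference was 0.09 on the log2 scale, against 0.02 over all 5226 probe sets. The absolute difference was under 0.5 in 90 of the 95 (94.7%, against 90.5% of all probe sets). The 5 others were DDX11, HNRNPL, RBM3, BYSL and EIF4EBP2, each in 1 of its probe sets. With the series as a block, the 95% interval of the difference lay between -1 and 1 for 90 of the 95 (94.7%, against 89.9% of all). It reached beyond a 2-fold change for DDX11, HNRNPL, RBM3, EIF4EBP2 and EIF2AK2. The median was -0.04 without IB replicate 3, 0.15 without DU×IB replicate 3 and 0.02 without both, and with array weights 47 of the 95 means were higher in DU×IB.

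**Figure D1:**
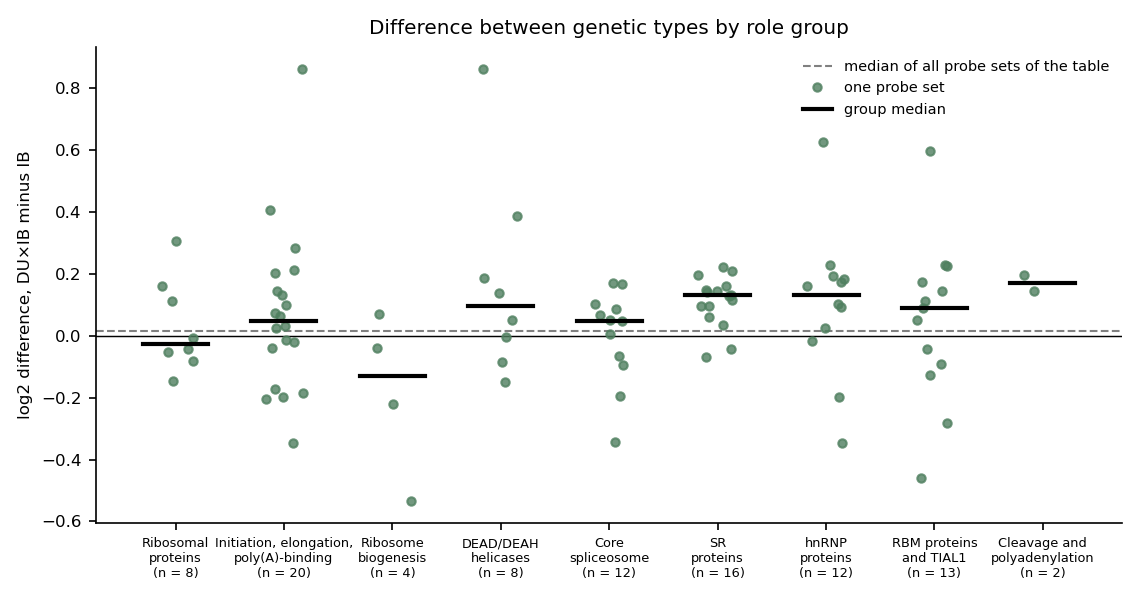
Log2 difference between DU×IB and IB piglets for each of the 95 probe sets (points; 14 piglets per genetic type), by role group, with the group median (bar) and the median of all 5226 probe sets (dashed line at 0.02). Most points lie within 0.5 of 0, and the highest are EIF4EBP2 at 0.86 and DDX11 at 0.86.

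Ribosomal proteins were measured by 8 probe sets of 8 genes, 3 with a higher and 5 with a lower mean in DU×IB, and the median difference was -0.03. RPL23, a protein of the large subunit, had the highest difference of them. It ran from 6.40 to 8.74 with a median of 7.79 in DU×IB piglets and from 6.68 to 8.24 with a median of 7.28 in IB piglets (difference 0.31, SE 0.23, adjusted p = 0.905). RPS27, of the small subunit, had the lowest, with a median of 8.00 in DU×IB and 8.12 in IB (difference -0.15, SE 0.24, adjusted p = 0.998). The ranges of both genes overlapped between the genetic types, with 4 DU×IB piglets above the highest IB piglet for RPL23 and 3 IB piglets above the highest DU×IB piglet for RPS27. RPS6, the small-subunit protein phosphorylated downstream of TOR signalling, differed by -0.01 (SE 0.21). RPL22L1, a paralogue of RPL22, differed by -0.04 (SE 0.20). RPL13A was dim, with a median of 3.00 in DU×IB and 3.08 in IB. The other 3, RPL12, RPL35 and RPS27A, differed by 0.11 (SE 0.19), -0.08 (SE 0.20) and -0.05 (SE 0.24). Without DU×IB replicate 3 and IB replicate 3, 5 of the 8 means were higher in DU×IB.

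The initiation and elongation factors and poly(A)-binding proteins gave 20 probe sets of 14 genes, 12 with a higher and 8 with a lower mean in DU×IB, with a median difference of 0.05. The elongation factor EEF1A1, which brings aminoacyl-tRNA to the ribosome, differed by 0.21 (SE 0.23, adjusted p = 0.998). The cap-binding protein EIF4E differed by 0.06 (SE 0.41), with a median of 6.65 in DU×IB and 7.09 in IB. Both probe sets of EIF5A, a factor that helps the ribosome through difficult peptide bonds, had slightly higher means in DU×IB, by 0.15 (SE 0.22) and 0.03 (SE 0.25). So did those of EIF5B, which joins the ribosomal subunits, by 0.20 (SE 0.22) and 0.08 (SE 0.26). PABPN1, the nuclear poly(A)-binding protein, had differences of 0.41 (SE 0.45), 0.13 (SE 0.21) and -0.04 (SE 0.25) in its 3 probe sets. Of the EIF3 complex, which holds the small subunit during initiation, EIF3L differed by -0.21 (SE 0.19), EIF3M by -0.18 (SE 0.44) and EIF3B by -0.01 (SE 0.22). EIF2S2, a subunit of eIF2, differed by 0.10 (SE 0.25). EIF1AX and its relative EIF1AY, which act in start codon scanning, differed by 0.03 (SE 0.31) and -0.02 (SE 0.43).

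EIF2A, a factor that can bring initiator tRNA to the ribosome apart from the canonical complex, had the lowest p of the 95 for a difference between the series in the effect of genetic type. In the series of 12 arrays it ran from 7.47 to 8.30 with a median of 7.69 in DU×IB and from 7.90 to 8.77 with a median of 8.43 in IB (difference -0.64, SE 0.18, adjusted p = 0.0956 within that series). In the series of 16 arrays it ran from 6.78 to 8.00 with a median of 7.81 in DU×IB and from 6.61 to 7.91 with a median of 7.73 in IB (difference 0.13). All 6 DU×IB piglets of the smaller series were under the median of their IB counterparts, and 3 of 8 did so in the larger. A test of the difference between the series gave p = 0.0204 before and 0.714 after adjustment. The same test gave 0 of 95 past the threshold and 2 at an unadjusted p under 0.05, EIF2A and RBM12B, against 6.37% of all probe sets.

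EIF4EBP2 encodes an inhibitor that holds EIF4E away from the initiation complex until TOR signalling releases it. The first of its 3 probe sets had the largest spread between piglets of all 95 (SD of 1.34 within genetic type and series). It ran from 9.39 to 10.8 with a median of 9.83 in DU×IB and from 5.99 to 10.8 with a median of 9.54 in IB (difference 0.86, SE 0.45, adjusted p = 0.641). The spread came from the IB group: IB replicates 1, 5, 7 and 9 had 6.16, 6.17, 8.45 and 5.99, while the other 10 IB piglets lay between 9.46 and 10.8. No DU×IB piglet was below 9.39. Replicate 9 belongs to the series of 12 arrays and the other 3 low piglets to the series of 16.

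In the same 4 piglets the second EIF4EBP2 probe set had 8.41, 9.17, 9.48 and 7.98, against 8.73 to 10.1 in the other IB piglets and 8.76 to 9.89 in DU×IB. It varied together with the first (r = 0.867 over 28 piglets, as deviations from the means of genetic type and series) and differed by 0.28 (SE 0.19) between genetic types. The third probe set did not follow them (r = -0.258 with the first). It ran from 6.11 to 7.42 in DU×IB and from 5.92 to 7.61 in IB, and its difference was -0.17 (SE 0.18). In the second probe set replicates 1 and 9 were thus below the other IB piglets while replicates 5 and 7 were within their range, and the probe sets of this gene did not give a shared direction.

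**Figure D2:**
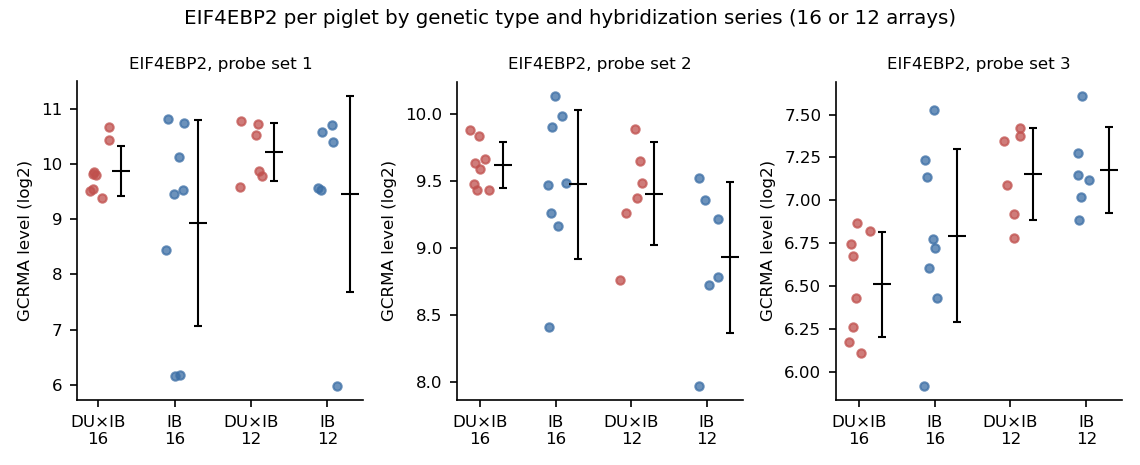
GCRMA level (log2) of the 3 EIF4EBP2 probe sets in each piglet (points), by genetic type and hybridization series of 16 or 12 arrays, with the mean and SD of each group. In the first panel 3 IB piglets of the series of 16 (6.16, 6.17 and 8.45) and 1 of the series of 12 (5.99) lie below all DU×IB piglets, which start at 9.39. Vertical axes differ between panels.

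EIF2AK2 encodes PKR, the kinase that is induced by interferon, is activated by double-stranded RNA and blocks initiation by phosphorylating the initiation factor eIF2. It ran from 6.72 to 9.59 with a median of 7.53 in DU×IB and from 6.11 to 10.9 with a median of 8.22 in IB. The genetic types differed by -0.35 (SE 0.41, adjusted p = 0.998), and the SD between piglets was 1.18 within type and series. Among probe sets with a single gene symbol, those that varied most like it included probe sets of interferon-induced genes. As deviations from the means of type and series over 28 piglets, r was 0.953 with MX1, 0.954 with RSAD2, 0.951 with USP18, 0.947 with ISG15 and 0.945 with IFIT3. Between any 2 probe sets of the table the median r was 0.0394. In DU×IB piglets alone r with MX1 was 0.914 and in IB piglets alone 0.969, and without the 2 piglets farthest from the middle it was 0.952. The lowest correlation with EIF2AK2 over probe sets with a gene symbol was that of another member, SNRPA, a protein of the U1 spliceosomal particle (r = -0.811, and -0.700 without those 2 piglets). The core spliceosome factor PRPF19, also a member, had -0.695. These points share arrays, and the likenesses were looked up after the values of EIF2AK2 had been seen.

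**Figure D3:**
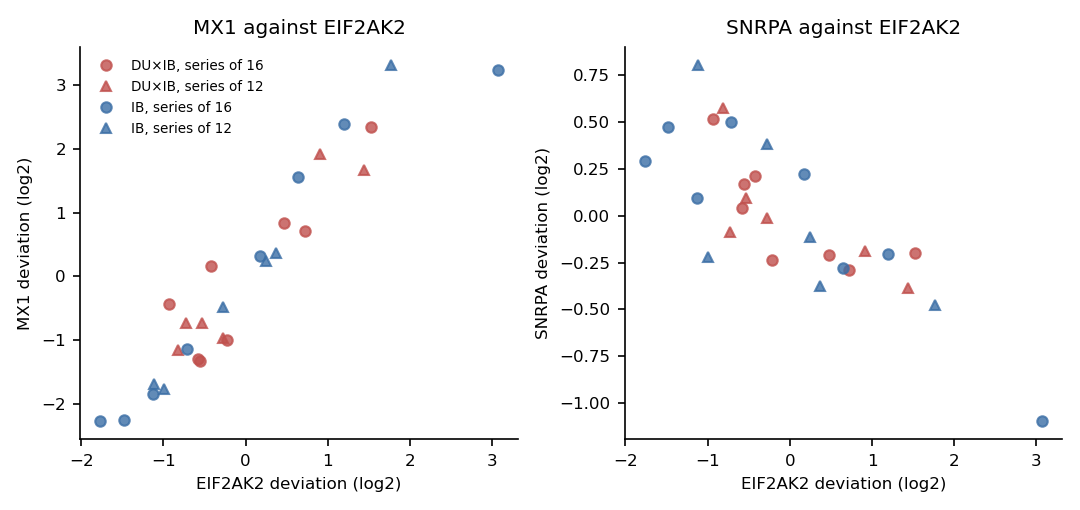
Deviation of MX1 (left) and SNRPA (right) from the mean of genetic type and series, against the deviation of EIF2AK2, for 28 piglets (log2 scale; colour gives the genetic type, shape the series). MX1 rises with EIF2AK2 (r = 0.953) and SNRPA falls (r = -0.811) in piglets of both types, and the rightmost point is an IB piglet.

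Ribosome biogenesis was covered by 4 probe sets of BYSL, NOP58 and NOP2. BYSL encodes bystin, needed to mature the small subunit. In the probe set on the study's list it ran from 3.50 to 5.93 with a median of 4.87 in DU×IB and from 4.10 to 6.95 with a median of 5.48 in IB. Within both series the DU×IB median was lower, 5.59 against 5.91 in the series of 16 and 4.36 against 4.69 in the series of 12, and the groups overlapped in each. The difference was -0.53 (SE 0.29, adjusted p = 0.671), and with the series as a block adjusted p was 0.140. With that block and without IB replicate 14, a fit chosen after the data were seen, adjusted p was 0.0921. The second BYSL probe set varied with the first (r = 0.712) and differed by -0.22 (SE 0.31, adjusted p = 0.998). NOP58, a core protein of box C/D snoRNPs, differed by 0.07 (SE 0.24), and NOP2, an rRNA methyltransferase, by -0.04 (SE 0.21).

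Of the DEAD and DEAH box helicases, 8 probe sets of 7 genes were measured, and 5 had a higher mean in DU×IB. DDX11, a DNA helicase of chromosome cohesion that shares the family's name, had the lowest p of the 95. It ran from 2.18 to 5.34 with a median of 2.76 in DU×IB and from 1.46 to 3.24 with a median of 2.63 in IB. The medians were close: the difference of 0.86 (SE 0.29, unadjusted p = 0.00479, adjusted p = 0.230) came from 6 DU×IB piglets above the highest IB piglet, 3 of them in each series. The means of both groups, 3.32 in DU×IB and 2.46 in IB, were under the limit of 4 that was used for dim probe sets, and 3 of those 6 piglets lay above it (4.50, 4.79 and 5.34). With the series as a block adjusted p was 0.125, and it passed the threshold, at 0.0949, 0.0976 and 0.0810, when DU×IB replicate 3, 6 or 10 was left out. These fits without a piglet were chosen after the data were seen, and their shares of all probe sets are not given. DDX46, which acts in the assembly of the spliceosome, differed by 0.39 (SE 0.30) and 0.19 (SE 0.21) in its 2 probe sets. DDX21, of ribosomal RNA synthesis and processing, differed by -0.15 (SE 0.28). DDX17 and DDX5, paralogous helicases of transcription and splicing, differed by -0.0046 (SE 0.24) and by 0.05 (SE 0.38). DDX6, of mRNA decapping and storage, differed by 0.14 (SE 0.20), and DDX50, a paralogue of DDX21, by -0.09 (SE 0.25).

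The core spliceosome group was set by the prefixes SF3, SNRP, PRPF and LSM, so not every LSM member in it is a spliceosomal protein. It had 12 probe sets of 10 genes, 8 with a higher and 4 with a lower mean in DU×IB (median difference 0.05). None had a difference over 0.35 in size. SF3B1, the U2 component that recognizes the branch point, had 2 probe sets with unlike values. The first ran from 2.83 to 5.06 with a median of 3.90 in DU×IB and from 3.48 to 5.87 with a median of 3.89 in IB (difference -0.34, SE 0.28, adjusted p = 0.942, and 0.308 with the series as a block). Means of the first in the series of 16, 3.48 in DU×IB and 3.74 in IB, were under the limit of 4 for dim probe sets. The second differed by 0.01 (SE 0.37), and the deviations of the 2 probe sets were unrelated (r = -0.0141). LSM6, of the ring of U6, differed by 0.17 (SE 0.22) and -0.09 (SE 0.21). SNRPA differed by 0.17 (SE 0.22). LSM2, which belongs to the same ring as LSM6, differed by 0.05 (SE 0.20), LSM12 by 0.07 (SE 0.21) and LSM14A, a protein of stored mRNA, by 0.09 (SE 0.26). The 4 PRPF genes, PRPF39, PRPF38B, PRPF19 and PRPF4B, differed by -0.20 (SE 0.54), -0.06 (SE 0.24), 0.05 (SE 0.19) and 0.10 (SE 0.33). Without DU×IB replicate 3 and IB replicate 3, 4 of the 12 means were higher in DU×IB.

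The SR proteins had the narrowest range of differences among the role groups of at least 8 probe sets. Their 16 probe sets, of 7 genes, differed by between -0.07 and 0.22, 14 with a higher mean in DU×IB but 7 of 16 with array weights, and none had an unadjusted p under 0.05. SRSF1, the founding member of the family, had differences of 0.22 (SE 0.23), 0.20 (SE 0.25) and 0.06 (SE 0.20). All 5 probe sets of SRSF6 had higher means in DU×IB, by 0.09 to 0.21. SRSF10 had differences of 0.15 (SE 0.36), 0.03 (SE 0.27) and -0.07 (SE 0.34), and SRSF11 of 0.10 (SE 0.26) and -0.04 (SE 0.31). SRSF2, SRSF5 and SRSF7 differed by 0.15 (SE 0.30), 0.16 (SE 0.43) and 0.13 (SE 0.25). SRSF2 ran from 8.99 to 11.5 in DU×IB and from 8.03 to 11.7 in IB, so that its piglets spread far more widely than the genetic types differed.

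The hnRNP proteins gave 12 probe sets of 10 genes, 9 with a higher mean in DU×IB (median difference 0.13). HNRNPL, which binds CA-rich RNA and controls exon inclusion, had the second lowest p of the 95. It ran from 8.18 to 10.3 with a median of 9.08 in DU×IB and from 6.68 to 9.77 with a median of 8.49 in IB. Of the 14 DU×IB piglets 13 lay above the IB median, and 5 IB piglets lay below all DU×IB piglets, but the ranges overlapped. The difference was 0.63 (SE 0.28, unadjusted p = 0.0291, adjusted p = 0.490), with 0.71 in the series of 16 and 0.51 in the series of 12. With the series as a block adjusted p was 0.246, and with array weights it was 0.0673. Among probe sets with a single gene symbol, those that varied most like HNRNPL were of NQO1 (r = 0.776), PIR (0.623) and ME1 (0.593) over 28 piglets. They were looked up after the values of HNRNPL had been seen. NQO1 and ME1 encode NAD(P)H quinone oxidoreductase and cytosolic malic enzyme. Between genetic types NQO1 and PIR had higher means in DU×IB (differences 0.42 and 0.28), as HNRNPL did, while ME1 had a lower one (-1.02). The r with NQO1 was 0.681 in DU×IB piglets and 0.838 in IB piglets, that with PIR 0.799 in DU×IB and 0.532 in IB, and that with ME1 0.167 in DU×IB and 0.760 in IB. HNRNPU, a scaffold protein of nuclear RNA, had the lowest difference of the group, -0.35 (SE 0.31, adjusted p = 0.975). The other members lay between -0.20 (HNRNPH2, SE 0.26) and 0.23 (HNRNPR, SE 0.22), with HNRNPA3 at 0.18 (SE 0.36), HNRNPM at 0.10 (SE 0.28), HNRNPH3 at 0.09 (SE 0.24) and HNRNPH1 at 0.03 (SE 0.25). HNRNPDL had 0.17 (SE 0.28) and -0.02 (SE 0.21) in its 2 probe sets.

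The RBM proteins and TIAL1 gave 13 probe sets of 12 genes, 8 with a higher mean in DU×IB (median difference 0.09). TIAL1, also called TIAR, a protein that binds U-rich RNA, controls splice sites and silences translation under stress, ran from 3.55 to 5.25 with a median of 4.10 in DU×IB and from 3.60 to 5.86 with a median of 4.47 in IB. Its groups stood apart mostly in the series of 12, where DU×IB piglets had 4.24 to 5.25 and IB piglets 4.92 to 5.86. There each of the 6 DU×IB piglets was under the IB median. In the series of 16 the ranges, 3.55 to 4.39 in DU×IB and 3.60 to 4.48 in IB, overlapped nearly wholly. The means there, 3.79 in DU×IB and 4.02 in IB, were near the limit of 4 for dim probe sets. The difference was -0.46 (SE 0.28, adjusted p = 0.763), -0.77 within the series of 12 (adjusted p = 0.0918) and -0.23 within the series of 16 (adjusted p = 0.997). The difference between the series had p = 0.0709 before and 0.781 after adjustment. With the series as a block adjusted p was 0.119, and it passed the threshold when IB replicate 1, 3, 4 or 13 or DU×IB replicate 4 was left out (0.0608 to 0.0923). These fits without a piglet were chosen after the data were seen, and their shares of all probe sets are not given.

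RBM4, a splicing regulator of muscle and neural exons, is named for both RBM14 and RBM4 in the study's list. It had the tightest spread of the 95 (SD of 0.163 within type and series). It ran from 7.99 to 8.44 in DU×IB and from 8.21 to 8.77 in IB in the series of 16, and from 6.95 to 7.23 in DU×IB and from 7.00 to 7.54 in IB in the series of 12. Each of the 14 DU×IB piglets was under the IB median of its own series. The difference was -0.28 (SE 0.24, adjusted p = 0.953), and with the series as a block SE was 0.09 and adjusted p 0.135. In fits with that block, chosen after the data were seen, it passed without IB replicate 4 (0.0785) or 9 (0.0922). RBM3, a cold-inducible RNA-binding protein that supports translation, ran from 8.24 to 11.6 with a median of 10.5 in DU×IB and from 8.50 to 11.3 with a median of 9.74 in IB (difference 0.60, SE 0.31, adjusted p = 0.640). RBM26 had differences of 0.18 (SE 0.24) and -0.13 (SE 0.29) in its 2 probe sets. RBM12B differed by 0.56 within the series of 16 and by -0.23 within the series of 12, and a test of the difference between the series gave p = 0.0298 before adjustment. The other 7 RBM genes differed by between -0.09 (RBM39, a splicing coactivator, SE 0.21) and 0.23 (RBM23, a relative of RBM39, SE 0.22). RBM5, which controls exons of apoptosis genes, differed by -0.04 (SE 0.20), and RBM8A, the Y14 protein of the exon junction complex, by 0.11 (SE 0.30). The cleavage and polyadenylation factors CSTF3 and CPSF2 differed by 0.20 (SE 0.23) and 0.14 (SE 0.29).

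**Figure D4:**
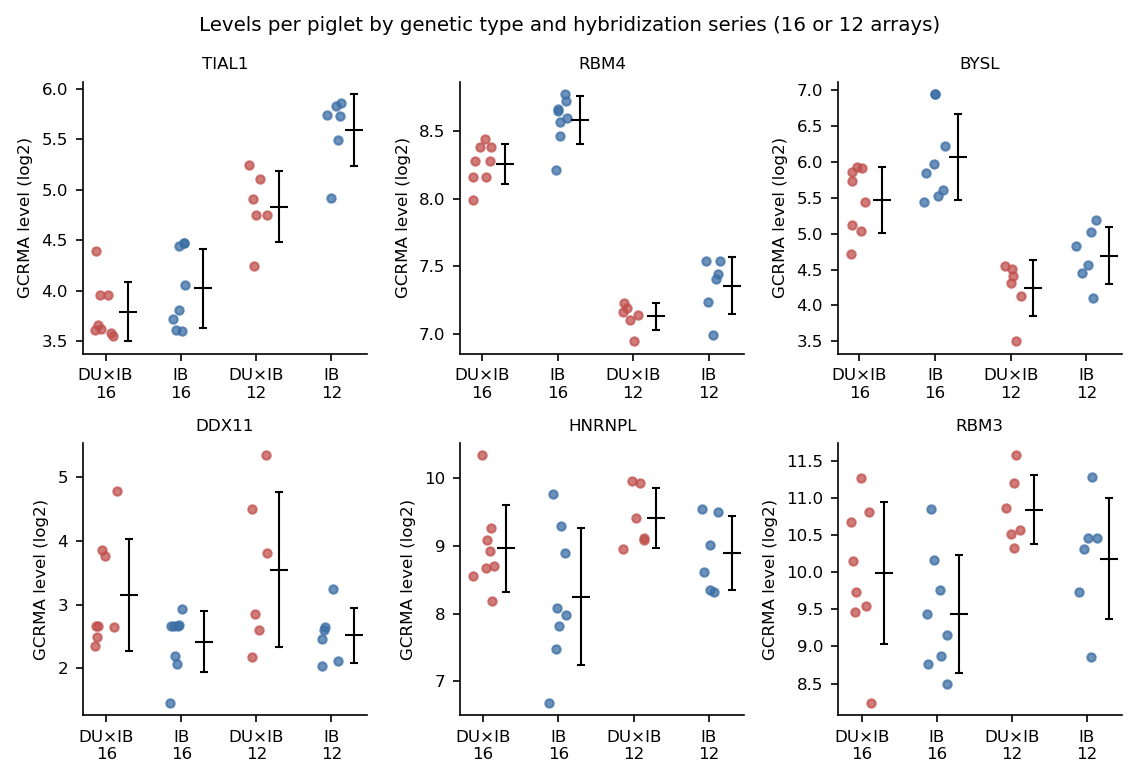
GCRMA level (log2) of TIAL1, RBM4, BYSL, DDX11, HNRNPL and RBM3 in each piglet (points), by genetic type and hybridization series of 16 or 12 arrays, with the mean and SD of each group. RBM4 and BYSL are lower and TIAL1 is higher in the series of 12 than in the series of 16, and DU×IB means are below IB means for these 3 genes in both series. Vertical axes differ between panels.

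The difference between the hybridization series exceeded that between genetic types for most of these genes. It explained a median of 53.2% of the variance of a member probe set, against 40.3% over all 5226 probe sets, and genetic type explained a median of 0.851%, against 1.54%. The level was higher in the series of 12 for 79 of the 95 (83.2%), against 68.6% of all probe sets, with a median difference between the series of 0.86, against 0.57. In 13 of the 95 the 2 series did not overlap at all, against 578 of all 5226 probe sets. Of the 95, 49 (51.6%) did not meet the variation filter within either series, against 31.9% of all probe sets. The filter was applied over both series together, so a shift between the series could by itself bring a probe set into the table. The larger series values of the members are therefore partly set by the filter and are not read as a trait of these genes. The series held different piglets, so differences of the hybridization and of the piglets cannot be told apart in these values.

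The members did not all shift the same way between the series. All 16 SR protein probe sets were higher in the series of 12, by 0.60 to 1.94, as were all 8 ribosomal protein and all 8 helicase probe sets. The widest shift was that of PRPF39, a U1-associated splicing factor (2.54). In the series of 12 it ran from 7.82 to 9.43 in DU×IB and from 8.89 to 9.49 in IB, and in the series of 16 from 4.69 to 7.64 in DU×IB and from 4.80 to 8.49 in IB. A PABPN1 probe set shifted by 2.08 and SRSF5 by 1.94. The 16 that were lower in the series of 12 included both probe sets of EIF5A (-1.08 and -1.02) and of BYSL (-1.30 and -1.46), EEF1A1 (-1.01), RBM4 (-1.17) and EIF3B (-0.95). The 2 probe sets of HNRNPA2B1 shifted in opposite directions, by 0.76 and -1.09, and their deviations within the series ran opposite too (r = -0.670), while their differences between genetic types were both small (0.19 and 0.16). A 28S ribosomal RNA control probe set shifted more than any member. It ran from 14.3 to 15.7 in the series of 12 and from 9.26 to 11.6 in the series of 16, while the 2 control probe sets of 18S shifted in opposite directions. The first 18S probe set ran from 12.0 to 13.2 in the series of 12 and from 7.52 to 9.71 in the series of 16, and the second from 8.52 to 10.1 in the series of 12 and from 10.2 to 11.7 in the series of 16.

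**Figure D5:**
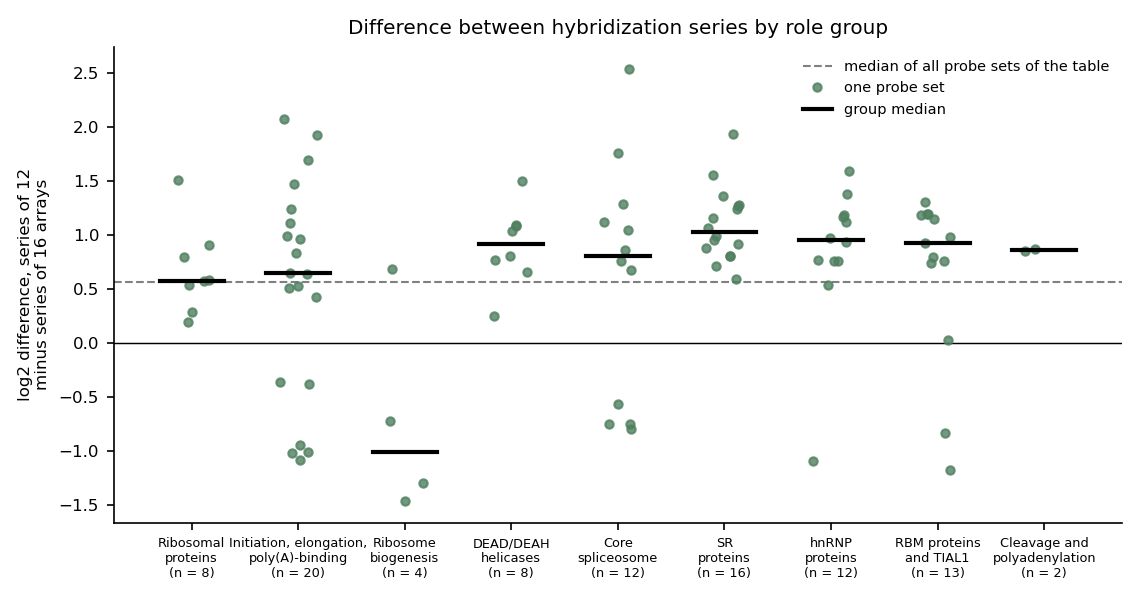
Log2 difference between the series of 12 and the series of 16 arrays, in a fit with genetic type, for each of the 95 probe sets (points), by role group, with the group median (bar) and the median of all 5226 probe sets (dashed line at 0.57). All SR protein, ribosomal protein and helicase probe sets lie above 0, and 16 probe sets of other groups lie below it.

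Deviations from the means of genetic type and series were correlated between members. The median r was 0.225 over 4433 pairs of probe sets of different member genes and 0.0394 over all pairs of the 5226 probe sets, over 28 piglets whose arrays all pairs share. The mean of the 95 followed the array median (r = 0.892). Without DU×IB replicate 3 and IB replicate 3 the median r was 0.142, and with each array centred on its median it was 0.0838. The SR proteins were the tightest group. All 103 pairs of probe sets of different SR genes, from 16 probe sets of 7 genes, had r above 0. Their median was 0.714, against 0.553 without those 2 piglets and 0.556 with centred arrays. Within the series of 12 alone the median was 0.401, and 83.5% of the pairs had r above 0. The hnRNP proteins had a median of 0.442 over 64 pairs. It was 0.295 without those 2 piglets, 0.176 with centred arrays and 0.172 within the series of 12. The ribosomal proteins had a median of 0.182 over 28 pairs. It was -0.013 without those 2 piglets, 0.127 with centred arrays and -0.0467 within the series of 12. The initiation and elongation factors and poly(A)-binding proteins had a median of 0.00451 over 182 pairs.

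Where a gene had several probe sets, they could be set against each other. Of 15 such genes, with 37 probe sets, 9 had probe sets that all correlated with r over 0.5, as SRSF11 (0.952), EIF5A (0.850) and SRSF1 (0.806 to 0.900) did. In 4 genes the lowest r was below 0: HNRNPA2B1, DDX46 (-0.455), EIF4EBP2 and SF3B1. The difference between genetic types had a shared sign over all probe sets in 7 of the 15 genes and both signs in 8.

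Other genes of these pathways were few in the table. None passed the threshold with or without the series as a block, and ATF4 and DNTTIP2 passed, both lower in DU×IB, within the series of 12, where 4.38% of all probe sets passed. The control of translation by TOR and the integrated stress response had 4 of 26 listed genes, in 5 probe sets with a median difference of -0.28. ATF4, the transcription factor translated when eIF2 is phosphorylated, averaged 13.2 ± 0.525 in DU×IB and 13.6 ± 0.428 in IB (SD, n = 14 each, difference -0.44, adjusted p = 0.503), and it passed within the series of 12 (difference -0.90, adjusted p = 0.0914). The median of the list was -0.09 within the series of 16 and -0.50 within the series of 12. Aminoacyl-tRNA synthetases and their scaffold proteins had 9 of 23 genes, in 12 probe sets, 10 of them with a lower mean in DU×IB and a median of -0.06. The median was -0.12 within the series of 16 and 0.05 within the series of 12, and 1 of the 12 probe sets had the same sign in both. Both probe sets of SARS, which charges serine tRNA, were among the lower (-0.44 and -0.21, adjusted p = 0.590 and 0.998). Ribosome biogenesis outside the chosen families had 13 of 60 genes, with a median of -0.05. The median was 0.02 within the series of 16 and -0.33 within the series of 12, where DNTTIP2, a nucleolar protein, passed (difference -0.84, adjusted p = 0.0941). The study names DNTTIP2 among its genes upregulated in IB, from these same arrays, so it is not independent evidence. Splicing factors outside the chosen families had 20 of 83 genes (median 0.02) and mRNA 3' processing, export and decay 17 of 62 (median -0.04). The median over all 5226 probe sets was 0.02.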

How the data were processed

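The authors read the arrays in GCOS and deposited log2 levels per probe set, made with GCRMA in BRB-ArrayTools 3.7.1, which includes quantile normalization, and kept 5226 probe sets that passed their filter on variation. No column was left out. Symbols came from the study's tables and otherwise from the annotation of the array, which can be old. No genome build is named, so no coordinates are given.

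Genetic types were compared on the deposited log2 levels, with DU×IB minus IB as the direction, by limma 3.58.1 in R 4.3.3 (lmFit and eBayes, two-sided, no covariate), with Benjamini-Hochberg adjustment over 5226 probe sets and 0.10 as the threshold. The paper's own model was Bayesian and also held the array and the hybridization series. The series, recovered from 10 spike-in probe sets, was used as a block and for fits within each series, and intervals are at 95%. Correlations are Pearson's r of deviations from the means of genetic type and series. Their number, 28 arrays, limits the precision. The fit was tested on simulated data.

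The members, role groups and lists were chosen with earlier results of these data known. Named are the members on the study's list, those past the threshold without a covariate or with the series as a block, the 12 of lowest p, the highest and lowest difference of each role group, the genes with several probe sets, and a few known regulators. Other members were named after their values were seen, to describe their group. Alternatives were the series block, each series alone, quantile normalization, centring of each array on its median, array weights, the first principal component of the residuals, a prior with trend and robust fit, a block for the replicate number, leaving out dim probe sets (means under 4 in both types) or probe sets of several transcripts, a threshold of 0.05, and leaving out each piglet. Python 3.11.15, numpy 2.4.6, pandas 2.3.3 and matplotlib 3.10.9 were used for tables and plots.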

Additional observations from a re-analysis of the deposited data

How the results depend on the processing

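No member passed the threshold without a covariate, and the count was 0 in each direction under the series block, within the series of 16 arrays, under quantile normalization, array median centring, a trended and robust prior, the first principal component of the residuals, without dim probe sets, without probe sets of several transcripts and at 0.05. The count of lower members was 2 within the series of 12 arrays (TIAL1 and EIF2A), and the count of higher members was 1 with array weights (HNRNPL). Leaving out 1 piglet at a time gave 0 in each direction. Settings chosen after seeing the data were these: the series block with array median centring gave 1 lower (TIAL1), the series block without DU×IB replicate 3 and IB replicate 3 gave 1 higher (DDX11) and 1 lower (TIAL1), and the series block without 1 piglet at a time gave 0 to 1 higher and 0 to 2 lower. The cause of these changes in count was not tested. The shares of all probe sets under the settings chosen afterwards are not given here. The series block alone passed 2.77% of all probe sets, so these counts are not read as results about the members. The median difference of 0.09 ran from -0.04 to 0.15 without 1 piglet, and was -0.02 within the series of 12 and -0.0017 with array weights. No member had an interaction with the series past the threshold, with or without median centring. Of 51 named probe sets, 28 changed the sign of a difference that had passed no threshold under at least 1 setting, 159 times among 3616 values, and no value past a threshold changed sign.

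The replicate numbers did not pair the piglets. The correlation of same-numbered piglets was over 0.1 in 12 of 14 numbers (median 0.303), and 2 of 14 piglets correlated best with their own number. After the series was taken out these were 2 of 14 (median -0.0737) and 1 of 14. With the replicate block the counts stayed at 0 and 0 and the median difference at 0.09.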
